A study of Mus musculus with 8 samples.

Results

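The genes described here are the chemokines and the chemokine receptors of the mouse, measured by bulk RNA-seq in the prostate of control and etanercept-treated NOD mice. A gene was counted as a member when the GENCODE M21 annotation lists it as protein-coding and its symbol belongs to the numbered Ccl, Cxcl, Ccr, Cxcr or Ackr series, or is Cx3cl1, Cx3cr1, Xcl1, Xcr1 or Ccrl2. This gave 68 of the 54532 genes in the count table, with 63 different symbols, 44 of them rows of ligands and 24 rows of receptors. The symbols Cxcl11, Ccl19-ps1 and Ccl19-ps3 match the same letters but are not annotated as protein-coding, so these 3 genes are no members. The tissue was frozen prostate, with the part sampled not given in the sources used here, from male NOD/ShiLtJ mice, an inbred strain that develops autoimmune diabetes and prostatic inflammation. Each of 4 control mice (animals 1, 3, 65 and 69) received PBS, and each of 4 treated mice (animals 17, 19, 50 and 52) received etanercept at 4 mg/kg. Etanercept is a soluble TNF receptor fusion protein that binds TNF. Injections were given 2 times per week for 5 weeks from an age of 25 weeks, and tissue was taken at 30 weeks. The study pooled diabetic with non-diabetic animals, and the diabetic status of the 8 mice was not used here.

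Chemokines are small secreted proteins that direct the migration of leukocytes, and they act on receptors with a heptahelical fold that couple to inhibitory G proteins. Inflammatory chemokines are induced in tissue by cytokines such as TNF and interferon-gamma, largely through NF-kappaB and STAT transcription factors, whereas homeostatic chemokines position lymphocytes in lymphoid tissue and at epithelia. Atypical receptors bind the same ligands without G protein signalling and act as scavengers or depots.

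The libraries held between 13760669 and 25178942 counts per mouse, so that 3 counts, taken as the smallest level that can be detected, corresponded to between 0.108 and 0.211 CPM, the counts of a gene scaled to a common library size. Markers of prostate secretory epithelium were present in every library, with a summed level between 13201 and 246758 CPM. A pair of libraries had fewer detected genes than the others, control 69 with 15976 and etanercept 17 with 15917, against 17537 to 19130 in the other 6. In control 69, 157 genes had 0 counts although each of the other mice had at least 20, and in etanercept 17 this held for 92 genes, against 0 to 8 in the other libraries. The zeros reached the chemokine family, since 9 of its 45 tested genes had 0 counts in etanercept 17 and 5 in control 69, against 0 to 3 elsewhere. A count of 0 in these libraries was therefore not read as absence. Control 3 had the highest summed level of macrophage, T cell, B cell, endothelial, adipocyte and skeletal muscle markers of the 8 mice, with 352 CPM of the muscle myosin gene Myh4 against at most 1.27 CPM elsewhere. Etanercept 17 held 97019 CPM of seminal vesicle markers, which reached 3991 CPM in control 69 and at most 666 CPM elsewhere.

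Most of the family was transcribed in the NOD prostate. Of the 68 members, 45 passed the filter on low counts and were tested (28 ligands and 17 receptors), 9 had counts but did not pass, and 14 had 0 counts in all 8 mice. Of the 14, 7 lie on unplaced scaffolds (copies named Ccl27, Ccl19, Ccl21a, Ccl21b and Ccl21c) and 7 on chromosomes, namely Cxcl5, Cxcr1, Ccr1l1, Ccl26, Ccl21a, Ccl21b and Ccl27b. Near-identical copies limit the reading of these zeros. All 253 of the 150-nt windows in Ccl21b transcripts also occur in other genes, and the share of such windows was 97.5% in Ccl27b, 33.7% in Ccl21a and 32.4% in Ccl19. Reads from such windows could not be assigned to 1 gene. The shares cover transcripts of the reference chromosomes only, so with the scaffold copies included they could be higher.

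Levels between genes were compared as FPKM, which divides CPM by exon length in kilobases. The highest mean over the 8 mice belonged to Ccl8, a monocyte-attracting ligand, with 131 ± 132 FPKM (SD, n = 8), followed by Cxcl13, the B cell attractant, with 76.1 ± 45.9 FPKM. Ccl5 (40.6 ± 44.2 FPKM), a T cell and monocyte attractant, and Cxcl14 (37.0 ± 11.4 FPKM), an epithelial ligand, came next. The spread of each of these neighbours covers the next mean, so their order is not settled by 8 mice. Ackr3, Cx3cl1, Cxcl9, Cxcl16, Ccl11 and Ccl12 completed the highest 10, with means between 8.69 and 13.8 FPKM. Apart from Ackr3, the highest receptor was Cxcr4, at 8.30 ± 7.52 FPKM, and the tested member with the lowest mean was Ccl25, at 0.293 FPKM.

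**Figure D1:**
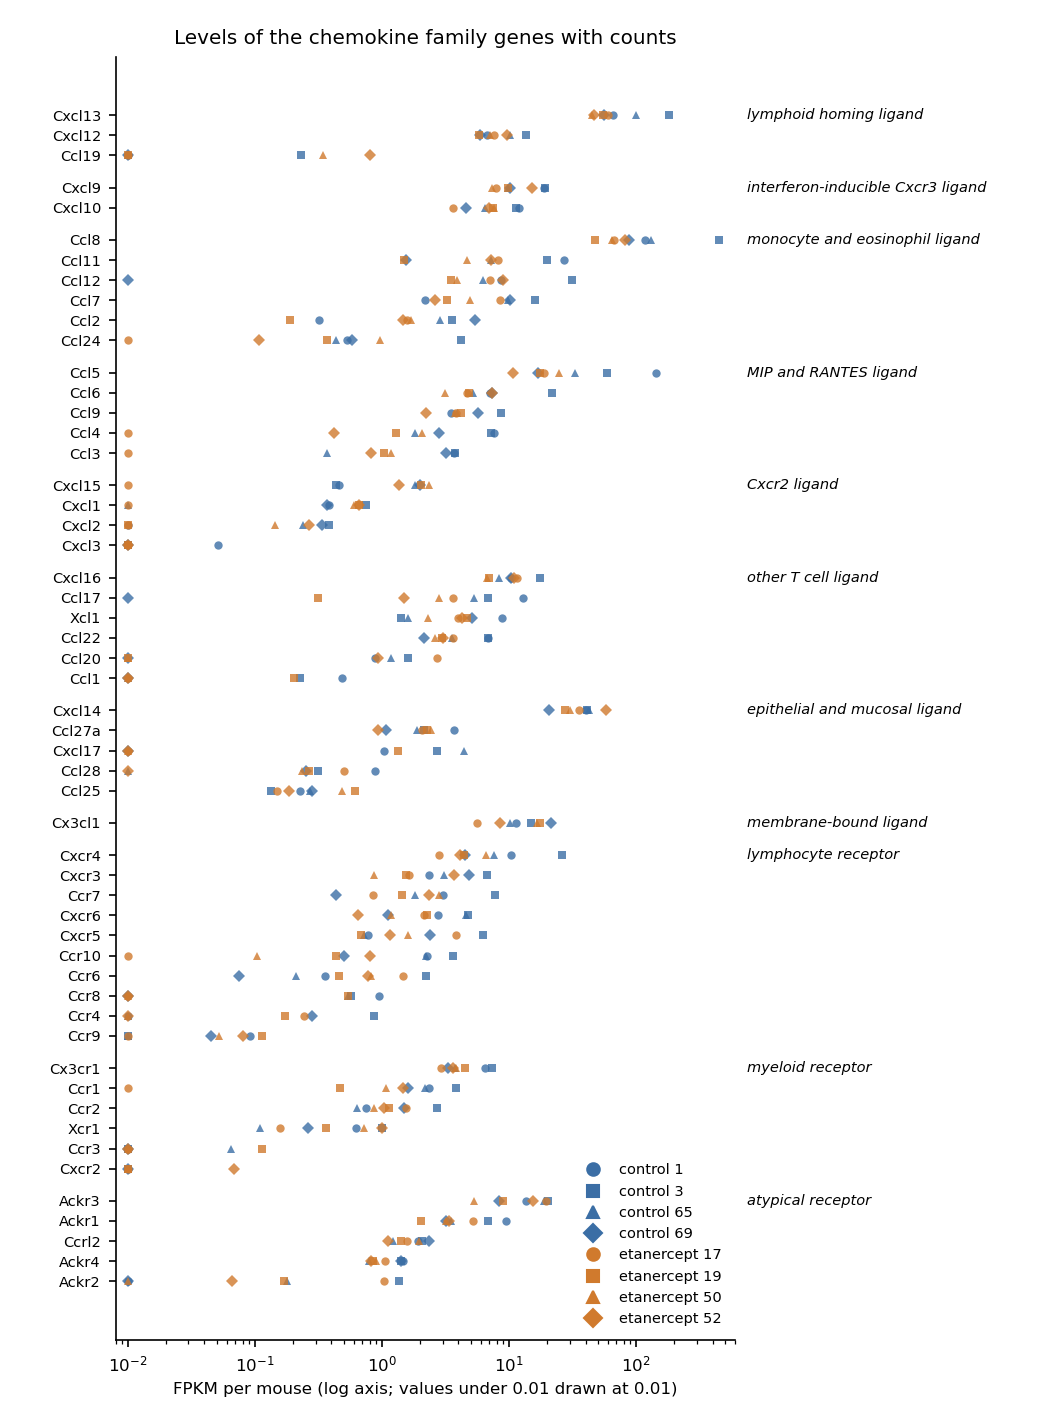
Level of 53 chemokine family genes with counts, 1 point per mouse, in FPKM on a log axis and grouped by role (blue control, orange etanercept; values under 0.01 are drawn at 0.01). Ccl8, Cxcl13, Ccl5 and Cxcl14 have the highest means, though low points of Ccl5 lie among those of other genes, and for most genes the blue and orange points intermix.

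No chemokine or chemokine receptor passed the adjusted threshold between etanercept-treated and control prostates. At an adjusted p of at most 0.05 (edgeR quasi-likelihood test, Benjamini-Hochberg over 15472 tested genes), 0 of 45 members were called, and the share of called genes over the whole table was 0.0%. The smallest adjusted p of a member was 0.739. At an unadjusted edgeR p of at most 0.05, 5 members were lower in etanercept-treated mice, namely Ccl8, Ccl5, Cxcl13, Cxcr4 and Ccr10, where 3.63% of all tested genes were lower at that p. No member was higher at that p, a direction taken by 2.99% of all tested genes. DESeq2 called 0 members at an adjusted p of at most 0.05 (0.0898% of all genes with a p), with 0.163 for Ccl8 as the smallest adjusted p, and gave 9 members lower at its unadjusted p (3.6% of all genes with a p) and 0 higher. The count of 5 depended on single libraries, as it was 3 of 46 without control 3 (3.03% of all genes), 8 of 47 without control 1 (2.82%), 11 of 47 without control 69 (5.98%) and 8 of 47 without etanercept 52 (2.69%). It was 3 of 45 with low against high animal numbers as a block (2.81%), and 3 of 46 without control 3 and etanercept 17 (3.27%). With both libraries of many zeros left out, control 69 and etanercept 17, 12 of 46 members were lower at that p, where 8.3% of all tested genes were, and 0 passed the adjusted threshold.

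The fitted differences of the family leaned to one side. The log2 fold change, etanercept against control, was below 0 in 39 of 45 members, while 51.0% of all tested genes lay below 0, and it was above 0 in Ccl25, Ccr6, Cxcl15, Cxcl1, Xcr1 and Cxcl14. Its median was -0.62 over the members and -0.0099 over all tested genes. Ligands had a median of -0.64 and receptors a median of -0.49. Without control 3 the median of the members was -0.38, the weakest of the 8 fits that leave out a mouse. Members share mice and cell types and are not independent, so no test was made over them.

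**Figure D2:**
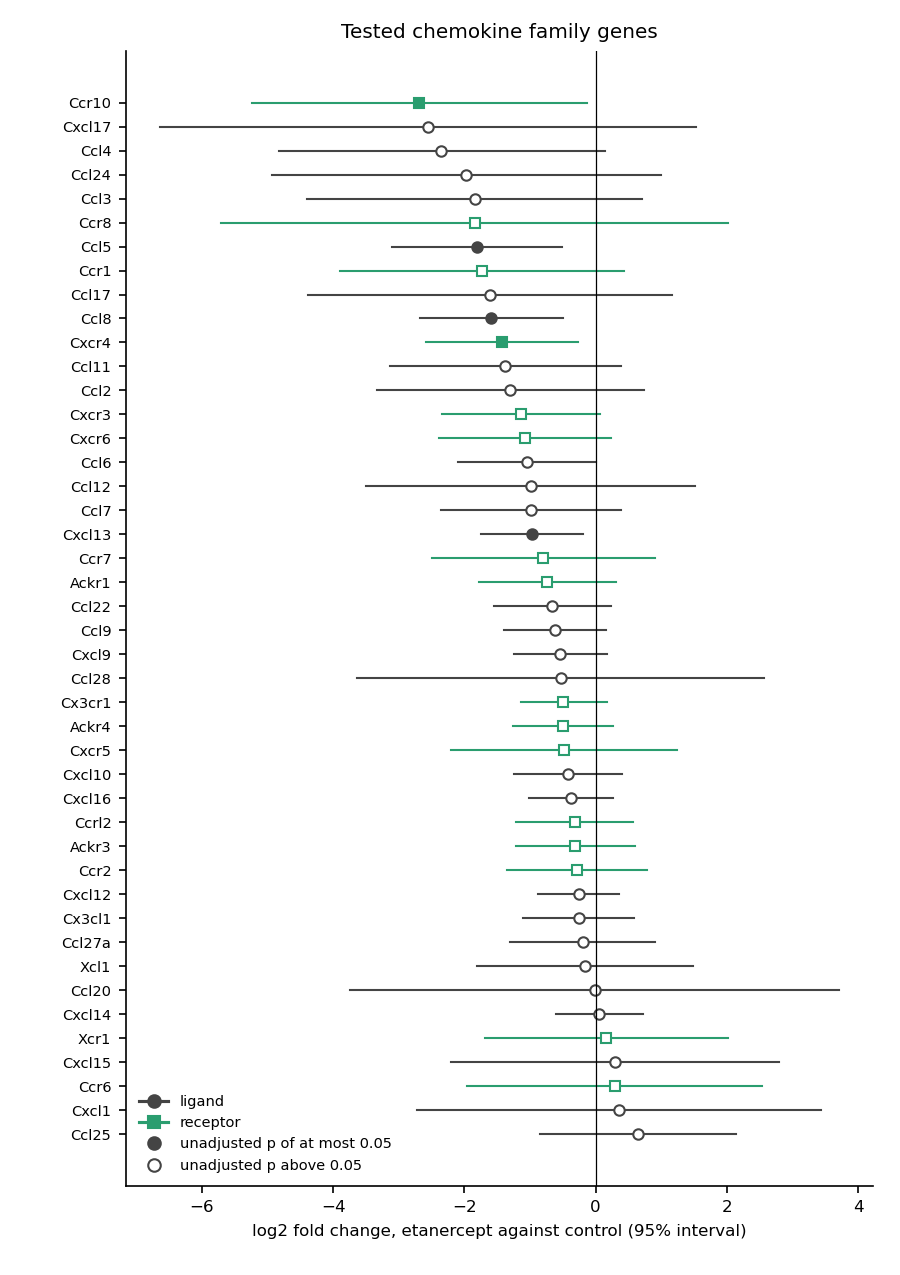
Log2 fold change of 44 tested members, etanercept against control, with 95% intervals from the edgeR fit (circles ligands, squares receptors, filled where the unadjusted p is at most 0.05). Points lie left of 0 for 38 genes, and the intervals of all but 5 genes reach across 0.

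Ligands of monocytes and eosinophils were led by Ccl8, which attracts monocytes and T cells. Ccl8 measured 60.2, 230.4, 67.4 and 44.7 CPM in control mice 1, 3, 65 and 69, and 34.5, 24.3, 33.2 and 41.6 CPM in etanercept mice 17, 19, 50 and 52. Every treated mouse was below every control mouse, although etanercept 52 was close to control 69, and control 3 stood far above the rest. The log2 fold change was -1.59 (SE 0.49), with an edgeR unadjusted p of 0.00881 and an adjusted p of 0.739. An exact two-sided permutation test gave p = 0.0286, the smallest value that 4 against 4 mice allow. Without control 3, the log2 fold change was -0.78. Groups without overlap occurred in 2 of the 45 tested members, Ccl8 and the receptor Ccr1, both lower with etanercept, where 2.53% of all tested genes were separated in that direction. In the other direction 0 members were separated, beside 2.41% of all tested genes.

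Ccl11 (eotaxin), which attracts eosinophils through Ccr3, measured 29.3, 21.5, 7.73 and 1.68 CPM in control mice and 8.90, 1.6, 5.01 and 7.75 CPM in treated mice. The treated values lay inside the control range except for etanercept 19, which was just below control 69 (log2 fold change -1.38, SE 0.79). Without control 1 the log2 fold change of Ccl11 was -0.85. Ccl12, a Ccr2 ligand of the mouse, measured 4.62, 16.8, 3.38 and 0 CPM in control mice and 3.78, 1.87, 2.09 and 4.77 CPM in treated mice. Here control mice spanned the whole range, and the 0 belongs to the library of control 69. Ccl2, the main ligand of Ccr2 and an NF-kappaB target, measured 0.361, 4.06, 3.23 and 6.12 CPM in control mice and 1.80, 0.214, 1.91 and 1.66 CPM in treated mice. The 3 highest Ccl2 values were controls, but control 1 was lower than 3 of the 4 treated mice (log2 fold change -1.30, SE 0.91). Of 7 ligands in this group 6 were tested, all 6 had a log2 fold change below 0, with a median of -1.34, and 1 was lower at the unadjusted p, beside 51.0% of all tested genes below 0 and 3.63% lower. Ccl7 and Ccl24 were the other tested genes, and Ccl26 had 0 counts.

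Ccl5 (RANTES), made by activated T cells and NK cells and a ligand of Ccr1, measured 138, 56.7, 31.7 and 16.4 CPM in control mice and 18.1, 16.7, 23.9 and 10.3 CPM in treated mice. Control 69 fell among the treated mice, while the other 3 controls were above all of them. This gave a log2 fold change of -1.81 (SE 0.58), with an edgeR unadjusted p of 0.0112, an adjusted p of 0.739 and an exact permutation p of 0.114. In control 1, Ccl5 made up 16.3% of the summed CPM of the family, against 1.68% to 4.76% in the other 7 mice, and without control 1 the log2 fold change was -1.04.

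Ccl6, a macrophage product that signals through Ccr1, measured 12.6, 38.8, 9.35 and 13.2 CPM in control mice and 8.31, 8.75, 5.67 and 13.1 CPM in treated mice. Control 3 was far above the rest, and of the treated mice only etanercept 52 reached the range of the other controls (log2 fold change -1.05, SE 0.47, edgeR unadjusted p = 0.0520). Without control 3 the log2 fold change of Ccl6 was -0.40. Ccl4 (MIP-1beta), made by activated lymphocytes and macrophages, measured 5.02, 4.79, 1.20 and 1.85 CPM in control mice and 0, 0.854, 1.37 and 0.277 CPM in treated mice. Only etanercept 50 was above a control mouse, and the 0 belongs to etanercept 17 (log2 fold change -2.35, SE 1.11, edgeR unadjusted p = 0.0617). Without etanercept 50 the log2 fold change of Ccl4 was -3.06. Ccl9 and Ccl3 were the other genes of this group. All 5 were tested, all 5 were below 0, with a median log2 fold change of -1.81, and 1 was lower at the unadjusted p, where all tested genes gave 51.0% and 3.63%.

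**Figure D3:**
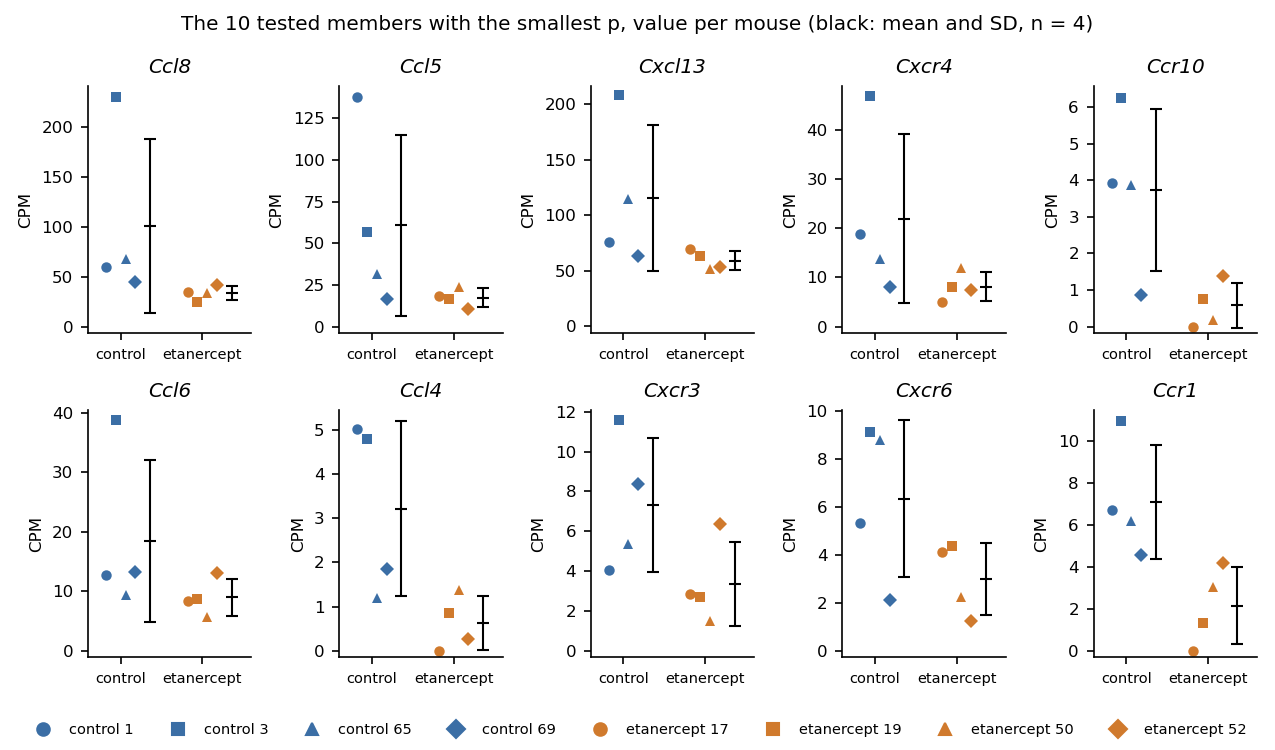
Values per mouse in CPM for the 10 tested members with the smallest p, with mean and SD of each group (n = 4) beside the points; axes differ between panels. In Ccl8 and Ccr1 no treated mouse reaches a control mouse, in the other 8 the groups overlap, and control 3 is the highest mouse in all panels except Ccl5 and Ccl4.

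Cxcl13, which attracts B cells through Cxcr5 and marks lymphoid aggregates, measured 76.2, 209, 115 and 63.7 CPM in control mice and 69.4, 63.0, 51.3 and 53.2 CPM in treated mice. Treated mice were close to each other, and only etanercept 17 was above a control mouse, control 69. Its log2 fold change was -0.97 (SE 0.34), with an edgeR unadjusted p of 0.0187, an adjusted p of 0.739 and an exact permutation p of 0.0571. Without control 3, it was -0.52. Cxcl12, a stromal ligand of Cxcr4 and Ackr3, measured 54.6, 111, 82.6 and 48.1 CPM in control mice and 61.9, 47.7, 58.4 and 78.9 CPM in treated mice. Its groups overlapped throughout (log2 fold change -0.26, SE 0.28, 95% interval -0.88 to 0.36). The ligands of Ccr7 that guide naive lymphocytes and dendritic cells were nearly undetected, with 0 counts for Ccl21a and Ccl21b and 18 counts in 3 mice for the chromosomal Ccl19. Reads shared with their near-identical copies could not be assigned, so these counts do not show absence.

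Cxcl9 and Cxcl10, the members grouped as interferon-inducible ligands of Cxcr3, were both transcribed at moderate levels. Cxcl9 measured 57.1, 58.2, 29.7 and 30.6 CPM in control mice and 23.7, 29.4, 22.3 and 45.9 CPM in treated mice. Of the treated mice 3 were below every control and etanercept 52 was above controls 65 and 69 (log2 fold change -0.54, SE 0.32, 95% interval -1.24 to 0.17). Cxcl10 measured 26.8, 25.7, 14.5 and 10.3 CPM in control mice and 8.14, 16.8, 17.2 and 15.7 CPM in treated mice. Controls 1 and 3 were highest, and controls 65 and 69 lay among the treated mice (log2 fold change -0.42, SE 0.36). Of the exon bases of Cxcl10, 5.91% lie in an exon of Art3 on the other strand, and since the library kit did not mark strand, reads in that stretch are ambiguous.

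Ligands of Cxcr2, which recruit neutrophils and are textbook targets of NF-kappaB, were scarce in both groups. Of the 5 genes, Cxcl1 and Cxcl15 were tested, and neither was below 0. Cxcl1 ranged from 0 to 1.40 CPM in control mice and from 0 to 1.25 CPM in treated mice, and Cxcl15 from 0.932 to 4.28 CPM and from 0 to 5.01 CPM. Cxcl2 had 44 counts in 5 mice, Cxcl3 had 5 counts in 1 mouse and Cxcl5 had none. On the receptor side, Cxcr2 had 3 counts, all from etanercept 52, and Cxcr1 had none. Among neutrophil markers, S100a8 had 0 counts in all 8 mice, and the summed level of the 5 listed genes lay between 0.866 and 4.39 CPM in control mice and between 0.988 and 3.04 CPM in treated mice.

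Promoter sequences are shown for members whose regulation by NF-kappaB is a textbook case and for the members with the smallest p that the sequence table held. The stretches are from RefSeq (GRCm38.p6), written 5′ to 3′ on the strand of the gene, with positions counted from the start of transcription. Capitals mark the NF-kappaB motif, GGG and TTCC with 3 bases of any kind between them, on either strand in the first 4. For Cxcl10 they also mark the interferon-response motif, GAAA and GAAA with 2 bases of any kind between them, on either strand. In the last 3 they mark TATAAA on either strand, and where matches overlap, their union is in capitals.
Cxcl1, chr5:90891125-90891224, plus strand, positions -120 to -21: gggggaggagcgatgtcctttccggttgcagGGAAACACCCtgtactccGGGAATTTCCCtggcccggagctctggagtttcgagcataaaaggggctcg
Cxcl2, chr5:90903779-90903878, plus strand, positions -120 to -21: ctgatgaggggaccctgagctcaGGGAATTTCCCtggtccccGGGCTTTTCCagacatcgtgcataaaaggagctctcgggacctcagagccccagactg
Cxcl3, chr5:90785981-90786080, plus strand, positions -120 to -21: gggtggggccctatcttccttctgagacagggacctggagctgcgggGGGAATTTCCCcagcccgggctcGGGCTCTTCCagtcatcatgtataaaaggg
Cxcl10, chr5:92348980-92349109, minus strand, positions -220 to -91: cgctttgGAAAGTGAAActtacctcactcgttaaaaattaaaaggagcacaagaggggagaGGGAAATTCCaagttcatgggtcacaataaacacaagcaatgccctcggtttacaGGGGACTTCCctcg
Ccl8, chr11:82115105-82115184, plus strand, positions -80 to -1: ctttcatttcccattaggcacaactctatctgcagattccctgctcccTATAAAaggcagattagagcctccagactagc
Cxcl13, chr5:95956859-95956938, plus strand, positions -80 to -1: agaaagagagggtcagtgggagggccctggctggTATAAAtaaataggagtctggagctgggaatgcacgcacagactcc
Cxcr4, chr1:128592300-128592379, minus strand, positions -80 to -1: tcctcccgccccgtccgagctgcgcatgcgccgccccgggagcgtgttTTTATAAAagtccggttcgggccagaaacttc

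The table held 56 promoters of 47 member genes, each from 250 bases before to 50 bases after the start, and had no entry for the others, among them Ccl11, Ccl2, Ccl21c, Ccl24, Ccl26, Ccl27, Ccl4, Ccl5, Ccl7, Ccr10, Ccr7, Cxcl16, Cxcl17, Cxcl5 and Cxcr5. The NF-kappaB motif was found in 9 of the 56 (16.1%), in Ccl1, Ccl20, Ccl9, Ccr3, Ccr6, Cxcl1, Cxcl10, Cxcl2 and Cxcl3, and in 5.56% of all 32851 promoters. The interferon-response motif was found in 3 of 56 promoters (5.36%, against 3.44% of all), the STAT motif (TTC and GAA with 3 bases of any kind between them) in 4 (7.14%, against 8.3%) and TATAAA in 15 (26.8%, against 13.6%). These matches describe letters in a window and were not tested as binding sites.

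Other ligands of T cells showed no separation of the groups. Cxcl16, a transmembrane and secreted ligand of Cxcr6, measured 31.2, 53.4, 25.3 and 31.3 CPM in control mice and 35.1, 21, 20.2 and 33.1 CPM in treated mice (log2 fold change -0.37, SE 0.29). Of its exon bases, 18.3% lie in an exon of Zmynd15 on the other strand. Xcl1, a ligand of cross-presenting dendritic cells, measured 4.62, 0.732, 0.844 and 2.66 CPM in control mice and 2.09, 2.46, 1.19 and 2.21 CPM in treated mice, so that treated mice lay within the control range. In Xcl1, 18.7% of the exon bases lie in an exon of Gm20743 on the other strand. Ccl20, the ligand of Ccr6, measured 1.26, 2.26, 1.69 and 0 CPM in control mice and 3.84, 0, 0 and 1.31 CPM in treated mice, with zeros in both groups (log2 fold change -0.015, SE 1.66). All 5 tested ligands of this role, with Ccl17 and Ccl22, were below 0, with a median log2 fold change of -0.37, and Ccl1 had 49 counts in 3 mice.

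Among epithelial and mucosal ligands, Cxcl14 was the most evenly expressed of the highest 4. It measured 74.2, 75.3, 78.1 and 37.8 CPM in control mice and 64.5, 50.1, 55.0 and 106 CPM in treated mice. The lowest value belonged to control 69 and the highest to etanercept 52, and the log2 fold change was 0.054 (SE 0.30, 95% interval -0.61 to 0.72). Ccl28, a mucosal ligand of Ccr10, measured 4.26, 1.53, 0 and 1.21 CPM in control mice and 2.44, 1.28, 1.13 and 0 CPM in treated mice, with overlap throughout. Ccl25, Ccl27a and Cxcl17 were also tested, and 3 of the 5 tested genes were below 0. Cx3cl1 (fractalkine), which is held on the membrane of endothelial and epithelial cells, measured 44.3, 58.4, 40.2 and 84.4 CPM in control mice and 22.2, 68.7, 64.7 and 33.5 CPM in treated mice. Neither group lay within the other, and the log2 fold change was -0.26 (SE 0.38), which turned to 0.23 without control 69 and etanercept 17.

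The receptors of lymphocytes included 2 of the 5 members lower at the unadjusted p. Cxcr4, carried by most leukocytes and retaining them near Cxcl12, measured 18.9, 46.9, 13.7 and 8.15 CPM in control mice and 5.06, 7.95, 12 and 7.47 CPM in treated mice. Only etanercept 50 was above a control mouse, control 69. For Cxcr4 the log2 fold change was -1.43 (SE 0.52), with an edgeR unadjusted p of 0.0208, an adjusted p of 0.739 and an exact permutation p of 0.0571. Without control 3 it was -0.74 with an unadjusted edgeR p of 0.0999, and that p was also above 0.05 without etanercept 17 (0.0547) and with the animal number range as a block (0.0510).

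Ccr10, found on skin-homing T cells and mucosal plasma cells, measured 3.93, 6.26, 3.87 and 0.867 CPM in control mice and 0, 0.747, 0.179 and 1.38 CPM in treated mice. Controls 1, 3 and 65 were above every treated mouse, and control 69 was below etanercept 52. Ccr10 had a log2 fold change of -2.69 (SE 1.14), with an edgeR unadjusted p of 0.0415, an adjusted p of 0.743 and an exact permutation p of 0.0571. Ccr10 was lower at that unadjusted p in 9 of 17 fits. The call was lost with any one of controls 1, 3 and 65 and etanercept 19 and 50 left out. Over the mice left out its log2 fold change ranged from -3.56 to -2.27, with an edgeR unadjusted p of 0.112 without control 3 and 0.0674 with the animal number range as a block. With 310 counts over 8 mice, Ccr10 is a weakly expressed gene. Its 0 count in etanercept 17 is 1 of the 9 zeros of that library.

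Cxcr3, the receptor of Cxcl9 and Cxcl10 on effector T cells, measured 4.04, 11.6, 5.34 and 8.38 CPM in control mice and 2.85, 2.67, 1.49 and 6.36 CPM in treated mice. All treated mice except etanercept 52 were below every control (log2 fold change -1.13, SE 0.54, edgeR unadjusted p = 0.0624). Cxcr6, a receptor of tissue-resident T cells, measured 5.34, 9.12, 8.79 and 2.14 CPM in control mice and 4.13, 4.38, 2.27 and 1.25 CPM in treated mice. Control 69 lay among the treated mice and the other controls above them (log2 fold change -1.07, SE 0.58, edgeR unadjusted p = 0.0962).

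Cxcr5, the B cell receptor of Cxcl13, measured 2.6, 21, 2.39 and 7.92 CPM in control mice and 12.7, 2.30, 5.31 and 3.87 CPM in treated mice. Control 3 and etanercept 17 were highest, and so were these mice for the summed B cell markers (364 and 171 CPM). For Cxcr5, 3.3% of the exon bases lie in an exon of Bcl9l on the other strand. Ccr6, the receptor of Ccl20 on B cells and Th17 cells, measured 0.830, 5.19, 0.492 and 0.173 CPM in control mice and 3.37, 1.07, 1.91 and 1.80 CPM in treated mice. Without control 3, the other controls were below all treated mice, and the log2 fold change went from 0.29 (SE 1.01) to 2.00, the upper end of its range when 1 mouse is left out. Of 10 receptors of lymphocytes 8 were tested, 7 were below 0, with a median log2 fold change of -1.1, and 2 were lower at the unadjusted p (51.0% and 3.63% of all tested genes). Ccr7 and Ccr8 were the other tested genes, while Ccr4 and Ccr9 had 78 and 77 counts.

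On the side of myeloid receptors, Ccr1, carried by monocytes and macrophages, was the second member whose groups did not overlap. It measured 6.68, 10.9, 6.19 and 4.56 CPM in control mice and 0, 1.33, 3.04 and 4.15 CPM in treated mice. Control 69 and etanercept 52 were the nearest pair across the groups. The 0 belongs to etanercept 17, where zeros were not read as absence, and the separation counts that mouse. The log2 fold change was -1.73 (SE 0.97), with an edgeR unadjusted p of 0.105, an adjusted p of 0.796 and an exact permutation p of 0.0286, the smallest possible. Without control 69 and etanercept 17, the fold change was -1.48.

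Ccr2, the receptor of inflammatory monocytes for Ccl2, measured 5.05, 18.4, 4.29 and 10.1 CPM in control mice and 10.4, 7.63, 5.85 and 7.06 CPM in treated mice. Treated mice lay within the control range (log2 fold change -0.29, SE 0.48). Cx3cr1, the fractalkine receptor of resident macrophages, measured 29.0, 33.1, 17 and 14.8 CPM in control mice and 13.1, 20.2, 17.2 and 16.5 CPM in treated mice. Controls 1 and 3 were above all other mice (log2 fold change -0.49, SE 0.29). The Cx3cr1 gene overlaps 9 annotated genes, but 1.73% of its exon bases lie in an exon of another gene. Xcr1, the receptor of cross-presenting dendritic cells, measured 2.78, 4.46, 0.492 and 1.16 CPM in control mice and 0.698, 1.6, 3.22 and 4.43 CPM in treated mice, over nearly the same range. Of 9 receptors of myeloid cells 5 were tested and 4 were below 0, with a median of -0.29, and Ccr3, the eotaxin receptor, had 10 counts in 2 mice.

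Atypical receptors were measured as well as the signalling ones. Ackr3, a scavenger of Cxcl12, was the highest receptor of the family, at 45.8, 67.4, 63.6 and 27.8 CPM in control mice and 65.4, 30.2, 17.9 and 51.4 CPM in treated mice. Both groups held low and high mice (log2 fold change -0.31, SE 0.41, 95% interval -1.22 to 0.60). Ackr1, Ackr4 and Ccrl2 were also tested, and all 4 genes were below 0 with a median of -0.40, none at the unadjusted p. Ackr2, a scavenger of inflammatory CC ligands, had 141 counts in 5 mice, of which 64 came from control 3 and 56 from etanercept 17.

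Chemokine genes lie in clusters on the mouse genome. On chromosome 11, between positions 82035571 and 83664683 (GRCm38), 11 CC ligands lie together, from Ccl2 to Ccl4. Of these 10 were tested, and all 10 had a log2 fold change below 0, between -2.35 in Ccl4 and -0.62 in Ccl9, with a median of -1.34, where 51.0% of all tested genes lay below 0. The cluster holds the tested ligands of the monocyte group other than Ccl24 and the whole group of Ccl3, Ccl4, Ccl5, Ccl6 and Ccl9, so position and role cannot be told apart. In the CXC ligand cluster of chromosome 5 (90759360 to 95961068), 3 of 5 tested genes were below 0, Cxcl9, Cxcl10 and Cxcl13, and the Cxcr2 ligands Cxcl1 and Cxcl15 were not. The receptor cluster of chromosome 9 (119901616 to 124147699) had 6 of 7 tested genes below 0, and Ccl22, Cx3cl1 and Ccl17 on chromosome 8 were all below 0.

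Summed over all 68 members, the family took 845, 1344, 713 and 551 CPM in control mice and 553, 504, 502 and 613 CPM in treated mice. The means were 863 ± 342 and 543 ± 52.3 CPM (SD, n = 4 each), and the groups overlapped through control 69. Treated mice were close to each other, and the spread was on the control side. Ligands alone measured 438 to 1047 CPM in control mice and 396 to 476 CPM in treated mice, and receptors 114 to 297 CPM and 95.8 to 150 CPM. Without Cxcl13, Ccl8 and Ccl5 the family sum was 427 to 848 CPM in control mice and 393 to 508 CPM in treated mice.

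Log2 fold changes below 0 were also found for most leukocyte markers, and in bulk tissue fewer cells of a type and less RNA per cell cannot be told apart. For the counts that follow, 51.0% of all tested genes were below 0 and 3.63% were lower at the unadjusted p. All 8 macrophage markers had a log2 fold change below 0, 4 of them at the unadjusted p (C1qa, C1qb, Cd68 and Fcgr1), and their summed level was 323 to 973 CPM in control mice and 245 to 340 CPM in treated mice. All 8 T cell markers were below 0, 3 of them at that p (Cd3e, Cd3g and Cd8a), with 51.9 to 143 CPM in control mice and 40.6 to 66.7 CPM in treated mice. The 7 B cell markers were below 0 with none at that p (84.0 to 364 CPM and 42.7 to 171 CPM). The same held for the 4 tested NK cell markers. All 6 listed NK cell markers summed to 9.53 to 21.1 CPM and 3.72 to 10.4 CPM. Gzma was the largest part of that sum in every control mouse. The untested Klrb1c had 0 counts in every control mouse and 18, 15, 4 and 0 in etanercept 17, 19, 50 and 52. The untested Ncr1 had 0, 8, 0 and 12 counts in control mice and 0, 30, 10 and 0 in treated mice. Of the 5 mast cell markers 3 were below 0, with a median log2 fold change of -0.039 (8.09 to 38.5 CPM and 12.4 to 63.7 CPM). Hdc, the histamine-forming enzyme, was higher at the unadjusted p, and a difference between lists was not tested. Hdc measured 45.2 CPM in etanercept 52 and 7.62 to 12 CPM in the other treated mice, and without etanercept 52 its log2 fold change went from 1.28 to 0.40 and the call was lost, as it was without any one of the controls. Endothelial markers, of which 7 of 7 were below 0, summed to 64.2 to 162 CPM and 50.4 to 78.3 CPM. Of the macrophage and T cell genes named, C1qa and Cd3g were at the unadjusted p in each of the 8 fits that leave out a mouse, and the other 5 were not. All adjusted p values of these markers were above 0.05, in edgeR. The part of cell content in the chemokine values was not tested beyond the ratios that follow.

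Ratios of a chemokine gene to the summed markers of a cell type that expresses it or, for Cxcl13, responds to it, chosen after the values were seen, overlapped between the groups in all 6 cases. Ccl8 per 100 CPM of macrophage markers was 16.8 ± 4.74 CPM in control mice and 11.9 ± 3.20 CPM in treated mice (SD, n = 4 each, exact permutation p = 0.0857). C1qa, C1qb and C1qc made up most of the macrophage sum, with 371, 208 and 200 of 973 CPM in control 3. Their log2 fold changes were -1.18, -0.86 and -0.87. The other macrophage markers had -0.38 (Csf1r), -0.42 (Adgre1), -0.49 (Mrc1), -0.79 (Cd68) and -1.47 (Fcgr1). Ccl5 per 100 CPM of T cell markers was 61.7 ± 51.6 and 33.6 ± 7.14 CPM (exact permutation p = 0.371), with control 1 at 139 and the other 7 mice between 24.0 and 41.1. For Cxcl13 per 100 CPM of B cell markers the values were 76.2 ± 15.7 and 77.0 ± 43.9 CPM (exact permutation p = 0.714). The exact permutation p was 0.514 for Cxcr4 to T cell markers, 0.257 for Cx3cr1 to macrophage markers and 0.457 for Cxcr5 to B cell markers.

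**Figure D4:**
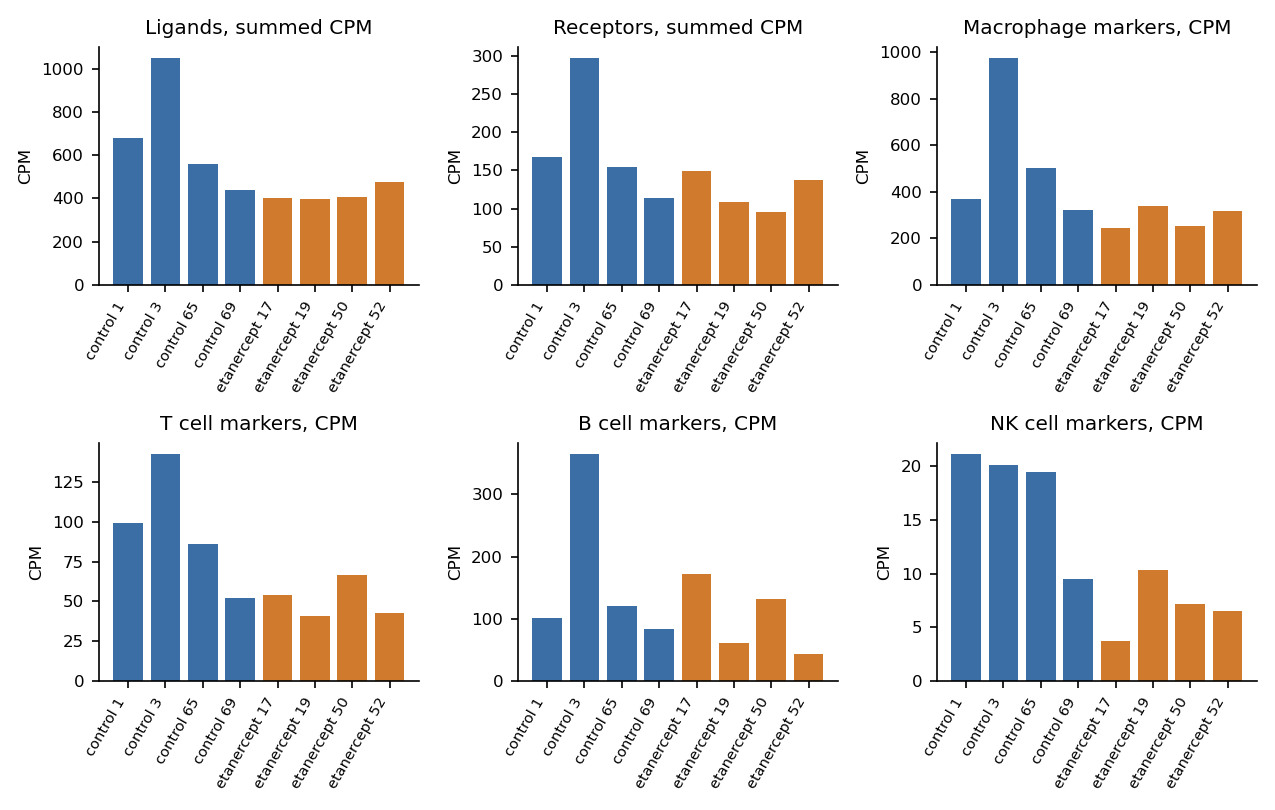
Summed CPM of the 44 ligands, the 24 receptors and the marker lists of macrophages, T cells, B cells and NK cells in each mouse (blue control, orange etanercept; bars start at 0). Control 3 has the highest bar in all panels except NK cells, where controls 1, 3 and 65 lie near 20 CPM, and control 69 stands at or near the level of the treated mice for ligands, receptors, T cells and macrophages.

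Genes downstream of the receptors and of adhesion were compared from lists of their own. Of 38 tested genes of chemokine receptor signalling, 25 were below 0. At the unadjusted p 3 were lower (Gnb2, Jak3 and Was) and 2 higher (Gnai1 and Gnai3), beside 3.63% lower and 2.99% higher of all tested genes. Only Gnai1 kept its call in every fit that leaves out a mouse. Gnai1, an inhibitory G protein subunit, measured 35.6, 38.2, 30.2 and 30.3 CPM in control mice and 45.4, 52, 46.3 and 58.7 CPM in treated mice. All treated mice were above all controls, as they were for 2.41% of all tested genes (log2 fold change 0.59, SE 0.16, edgeR unadjusted p = 0.00468, adjusted p = 0.739). Of 13 tested genes of leukocyte adhesion, 11 were below 0 and Itgb7, the integrin subunit of gut-homing lymphocytes, was lower at the unadjusted p. Without control 3 the log2 fold change of Itgb7 went from -1.01 to -0.44 and the call was lost, as it was without any one of the etanercept mice. Of 8 tested other chemoattractants and their partners, 8 were below 0 and 0 passed that p.

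Whether a ligand and its receptor vary together from mouse to mouse was looked at in 26 listed pairs, of which 22 had both genes tested (13 of a ligand and its receptor, 9 of a receptor and a marker of its cells). Pearson's r was above 0 in 20 of 22 pairs. The share of positive r among other gene pairs was not measured, so this count has no background beside it. After Benjamini-Hochberg adjustment over the 22 pairs, 0 pairs passed an exact permutation p of 0.05 by Pearson's r or by Spearman's rho. The smallest adjusted p by Pearson's r was shared by 3 pairs of a receptor and a marker. Ackr1, the erythrocyte and venular chemokine depot, was paired with the endothelial marker Pecam1 (r = 0.84, exact permutation p = 0.00975, adjusted 0.0715; rho = 0.90, exact permutation p = 0.00456, adjusted 0.100; r = 0.78 without controls 1 and 3). Of the exon bases of Ackr1, 25.7% lie in exons of Cadm3, the largest share of any member. Cxcr6 followed the T cell marker Cd3e at r = 0.84 (exact permutation p = 0.00863, adjusted 0.0715; rho = 0.79, exact permutation p = 0.0279, adjusted 0.202; r = 0.73 without control 3 and etanercept 52). Cxcr5 followed the B cell marker Ms4a1 at r = 0.85 (exact permutation p = 0.00933, adjusted 0.0715; rho = 0.67, exact permutation p = 0.0831, adjusted 0.366), but r was 0.36 without control 3 and etanercept 17, so that relation rests on those mice.

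Among ligands and their receptors, none of the 13 tested pairs passed by either measure after adjustment. Cxcl9 and Cxcr3 gave r = 0.66 (exact permutation p = 0.0825, adjusted 0.204; rho = 0.81, exact permutation p = 0.0218, adjusted 0.202; r = 0.70 without controls 1 and 3). Cxcl12 and Ackr3 gave r = 0.67 (exact permutation p = 0.0673, adjusted 0.204; rho = 0.76, exact permutation p = 0.0368, adjusted 0.202; r = 0.48 without controls 3 and 65). Points of these pairs share libraries and group differences. Within the 4 controls and the 4 treated mice, without a test, r was 0.08 and 0.93 for Cxcl9 and Cxcr3, and 0.90 and 0.49 for Cxcl12 and Ackr3. For Cxcr6 and Cd3e these values were 0.95 and 0.24, for Cxcr5 and Ms4a1 0.88 and 0.85, and for Ackr1 and Pecam1 0.78 and 0.80.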

How the data were processed

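Poly(A) RNA of 8 frozen prostates (4 control, 4 etanercept) was sequenced as paired 150-nt reads. The authors deposited whole-number read counts per gene and mouse without normalization, and the submitters' processing notes name fastp, STAR 2.6.1d, featureCounts 1.5.0-p3, DESeq2 1.26.0 and mm10. The kit named by the study (NEBNext Ultra II RNA) does not mark strand, so reads in exons shared by genes on opposite strands are uncertain, and the annotation used for counting is not given in the sources used here. Gene names, coordinates and exon lengths came from GENCODE M21 (GRCm38), in which 37 identifiers were not found.

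Counts were scaled with TMM factors (0.917 to 1.1) in edgeR 4.0.16 (R 4.3.3), filtered with filterByExpr (minimum count 10) and tested for etanercept against control with the quasi-likelihood test and Benjamini-Hochberg adjustment over 15472 genes, at the threshold of 0.05 used by the study. CPM and FPKM were computed from these counts. SE is the log2 fold change divided by the square root of F. Single genes were also compared by an exact two-sided permutation test of log2(CPM + 1) over 70 assignments of the mice, for which 4 against 4 gives p = 0.0286 at the least, and pairs of genes by exact permutation of pairings (SciPy 1.17.1). Scripts were tested on simulated data. Alternatives were DESeq2 1.42.0, RLE factors, library size alone, no filter, at least 10 counts in every mouse, removal of the trend with gene length (lowess span 0.3), the animal number range as a block, and each mouse left out. After the data were seen, fits without control 3 and etanercept 17 and without control 69 and etanercept 17 were added.

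Members, gene lists, pairs and motifs were chosen with earlier results of these data known. Values per mouse are given for the 10 tested members with the smallest p, the 10 with the highest mean FPKM and the genes of tested ligand and receptor pairs. Gnai1, the other genes of lists and Ackr2, Ackr1, Cxcl1 and Cxcl15 are named outside that rule, after their values were seen. For 1 tested member, counted in the totals, no values are reported here. Nothing in the labels says more than that each sample is a separate animal, and reads carry no molecular identifiers, so floors cover counting error only.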

Additional observations from a re-analysis of the deposited data

Results flagged for a closer look

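In each group of 4 mice, the highest and the lowest value of the 28 genes named by rule were compared with their nearest neighbour, and 6 of 56 groups held a mouse set apart by more than Dixon's critical value for 4 samples. Chance flags about 1 in 20 groups. Control 3 stood apart in 3 genes, with 230.4 CPM of Ccl8 (next 67.4 CPM), 38.8 CPM of Ccl6 (next 13.2 CPM) and 5.19 CPM of Ccr6 (next 0.830 CPM). Control 3 also had the highest summed macrophage (973 CPM) and B cell (364 CPM) markers. Control 69 was low for Cxcl14 at 37.8 CPM, with the next control at 74.2 CPM. Etanercept 17 was low for Cxcl10 at 8.14 CPM (next 15.7 CPM), and etanercept 19 was low for Ccl2 at 0.214 CPM (next 1.66 CPM), a level of 4 counts.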

How the results depend on the processing

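No paired analysis was possible because the control and etanercept groups share no animal number. In edgeR 0 genes of the whole table passed the adjusted threshold in every setting, each mouse left out included (0 to 0), and DESeq2 called 21, none of them a member. The number of members lower at the unadjusted p, 5 in the reported fit, was 9 in DESeq2, 3 with the animal number range as a block, 3 without control 3 and etanercept 17, 12 without control 69 and etanercept 17, and 3 to 11 when each mouse was left out. The median log2 fold change of the members ranged from -0.88 to -0.38 with 1 mouse left out and stayed below 0 in every setting. Ccl8, Ccl5 and Cxcl13 were lower at that p in 18 of 18 fits, Cxcr4 in 14 of 18 and Ccr10 in 9 of 17.

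Of the 28 genes named by rule, 18 were below 0 in every fit. Signs turned for Cxcl14 (-0.036 with library size alone, -0.11 without control 69 and etanercept 17), Ccl20 (0.15) and Xcl1 (0.20) with the length trend removed, Ccl12 (0.12) and Ccr2 (0.08) without control 3 and etanercept 17, and Cx3cl1 (0.23) and Ccr6 (-0.44) without control 69 and etanercept 17. With 1 mouse left out, ranges crossed 0 for Cxcl14 (-0.24 to 0.18), Ccl12 (-1.40 to 0.23), Cxcr5 (-1.14 to 0.47), Ccr2 (-0.56 to 0.24), Ccl20 (-1.58 to 0.40), Ccr6 (-0.089 to 2.00), Ccl28 (-1.11 to 0.37), Xcl1 (-0.45 to 0.47) and Xcr1 (-0.28 to 0.74). The correlation of Xcl1 and Xcr1 turned to 0.02 with a pseudocount of 0.25 and 0.05 with library size alone, where that of Ccl28 and Ccr10 turned to 0.02. The cause was not tested. With 4 mice per group and a biological coefficient of variation of 0.547, the intervals of weakly expressed members such as Cxcl17, Ccr8 and Ccl20 exceed 7 log2 units. The size of a difference in these genes is not settled by these data.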

Other observations

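Markers of smooth muscle and fat also differed in level between the mice. Smooth muscle markers had 0 of 5 log2 fold changes below 0, and Acta2, Tagln and Cnn1, genes of the contractile apparatus, were higher at an unadjusted edgeR p of at most 0.05, a direction taken by 2.99% of all tested genes. With 1 mouse left out, Tagln and Cnn1 kept this call in every fit, and Acta2 kept it only without control 3 or etanercept 19. The summed level of the smooth muscle markers was 3032 to 6203 CPM in control mice and 5542 to 11041 CPM in treated mice. The summed adipocyte markers were separated, with 32.0 to 483 CPM in control mice and 0.814 to 20.5 CPM in treated mice. Cfd made up most of that sum in control mice, with 383 CPM in control 3. Taken singly, Cfd and Retn were separated, while Adipoq, Plin1, Cidec and the untested Lep overlapped. Adipoq, Plin1, Cfd and Retn were lower at the unadjusted p (3.63% of all tested genes). With 1 mouse left out, Plin1, Cfd and Retn kept that call in every fit. Adipoq lost it without control 3 or etanercept 17, 19 or 50. No gene of these lists passed the adjusted threshold in edgeR.

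Lymphoid tissue markers had mixed signs, with 2 of 4 tested genes below 0 and Ltb, the gene of lymphotoxin beta, lower at the unadjusted p. With 1 mouse left out, Ltb kept that call only without control 69 or etanercept 17. Dendritic cell markers were below 0 in 5 of 5 genes with none at that p (14.6 to 33.5 CPM in control mice and 15.3 to 25.0 CPM in treated mice). Fibroblast markers were below 0 in 5 of 6 genes and epithelial markers in 5 of 6, with 0 at that p. The relation of these lists to the chemokine values was not tested.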
